A study of Mus musculus with 6 samples.

Results

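Mitochondrial ribosomal protein genes were examined as one group in chromatin accessibility data from mouse muscle nuclei. The group was every promoter window whose gene symbol starts with Mrpl or Mrps and a number, without symbols marked as pseudogenes, and it held 67 of the 49366 windows measured. The choice used gene names only and no measured value. Sorted nuclei were profiled by ATAC-seq, which reads out open chromatin through the sites where a transposase can insert sequencing tags. Yap is a transcriptional coactivator of the Hippo pathway, and the comparison asks how promoter accessibility differed after its knockdown. Male C57BL/6J mice aged 8 weeks received AAV6:Yap-shRNA in the gastrocnemius and tibialis anterior muscles of one leg, and the control vector AAV6:LacZ-shRNA, against a bacterial gene, in the other. Nuclei were collected after 28 days and sorted for PCM1, a protein at the nuclear envelope of muscle fibres. There were 3 LacZ-shRNA and 3 Yap-shRNA samples. No engineered allele is named for any mouse, each sample pooled 4 gastrocnemius and 4 tibialis anterior muscles, and the study's methods state that the Yap hairpin was cloned into a plasmid with eGFP under a CMV promoter, which is not restricted to muscle. The labels do not say whether 2 samples hold muscles of different mice, so p-values measure the spread between these pools.

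Mitochondria carry their own ribosome, the mitoribosome, which translates the few proteins encoded by mitochondrial DNA, all of them subunits of the oxidative phosphorylation complexes. Its RNAs come from the mitochondrial genome, whereas every mitoribosomal protein is encoded in the nucleus, made in the cytosol and imported. Muscle is rich in mitochondria and depends on this supply. Mrpl genes were named for the large subunit, which joins amino acids, and Mrps genes for the small subunit, which reads the messenger RNA. Some members descend from bacterial ribosomal proteins and others are found only in mitochondria. The names are historical: the products of Mrps18a and Mrps30 sit in the large subunit, and that of Mrps36 is now known as a component of the oxoglutarate dehydrogenase complex of the TCA cycle.

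Promoter sequences from RefSeq (GRCm38.p6, from 250 bases before to 50 after the annotated start) were matched to 60 of the 67 members. Those of 6 members are shown from 120 bases before to 30 after the start, read 5′ to 3′ on the strand of the gene. These genes are among those with the highest or lowest window levels, or show a YY1 match, and all 6 hold matches to the 3 factors counted next. Other members at these extremes are not shown. Mrps14, Mrpl55 and Mrps30 held no match to the 3 factors, and the NRF1 match of Mrpl10 lies upstream of this stretch. Capitals mark matches to NRF1 (GCGCANGCG), an ETS factor (CCGGAAG) or YY1 (AAGATGGCG) on either strand, and matches that run past the end shown stay in lower case.
Mrpl17, chr7:105811058-105811207, - strand: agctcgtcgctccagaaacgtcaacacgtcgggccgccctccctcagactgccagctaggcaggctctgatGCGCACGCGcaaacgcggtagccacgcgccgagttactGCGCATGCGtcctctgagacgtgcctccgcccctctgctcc
Mrpl32, chr13:14613008-14613157, - strand: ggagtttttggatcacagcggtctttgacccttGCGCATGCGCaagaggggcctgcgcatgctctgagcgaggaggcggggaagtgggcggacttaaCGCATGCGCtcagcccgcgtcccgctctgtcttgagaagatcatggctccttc
Mrpl57, chr14:57826119-57826268, + strand: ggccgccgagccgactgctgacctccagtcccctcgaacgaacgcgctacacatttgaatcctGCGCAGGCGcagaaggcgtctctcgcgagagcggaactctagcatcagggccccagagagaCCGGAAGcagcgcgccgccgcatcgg
Mrpl34, chr8:71464806-71464955, + strand: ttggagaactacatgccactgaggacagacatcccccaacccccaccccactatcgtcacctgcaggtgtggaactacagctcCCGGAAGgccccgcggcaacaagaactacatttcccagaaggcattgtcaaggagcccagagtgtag
Mrps16, chr14:20393461-20393610, - strand: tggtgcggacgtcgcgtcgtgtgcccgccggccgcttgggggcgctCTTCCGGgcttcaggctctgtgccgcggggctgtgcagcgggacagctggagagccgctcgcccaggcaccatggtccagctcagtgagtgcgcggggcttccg
Mrps18a, chr17:46110884-46111033, + strand: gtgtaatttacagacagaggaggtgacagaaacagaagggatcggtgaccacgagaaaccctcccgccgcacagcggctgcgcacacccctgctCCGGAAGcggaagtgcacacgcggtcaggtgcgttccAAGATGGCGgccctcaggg

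Mrpl17 held 2 NRF1 matches before its start, and in Mrpl32 the first run of capitals is a pair of overlapping NRF1 matches, 1 on each strand. Mrpl57 held an NRF1 match upstream and an ETS match just after the start. The Mrps18a promoter held ETS before the start and YY1 after it. NRF1, GABP (an ETS factor) and YY1 are known regulators of nuclear genes for mitochondrial proteins. NRF1 letters were present in 14 of the 60 promoters (23.3%), compared with 9.19% of 16522 protein-coding promoters of the same length. ETS letters were in 20 (33.3%), compared with 12.3%, and YY1 letters in 7 (11.7%), compared with 2.05%. At least 1 of the 3 was found in 34 (56.7%) of the members and in 21.0% of all promoters.

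Other letters were searched in the same windows. The GC box bound by SP factors (GGGCGG) was in 48.3% of member promoters and 48.0% of all, and matches to different motifs were counted whether or not they overlapped. A TATA box (TATAAA) was in 5.0% of members and 12.9% of all. The TEAD letters (ACATTCC), the binding site of the factors that recruit Yap to DNA, were found in 0 of 60 member promoters and in 3.3% of all. Median GC content was 57.8% in members and 57.0% in all promoters, and the median ratio of observed to predicted CpG was 0.819 and 0.598, respectively. A letter match is not evidence of binding, and its absence says only that these letters are not in the window. Comparable shares were found outside the mitoribosome: at least 1 of the NRF1, ETS and YY1 motifs was in 53.0% of 66 cytosolic ribosomal protein promoters and in 50% of 66 promoters of oxidative phosphorylation subunits.

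**Figure D1:**
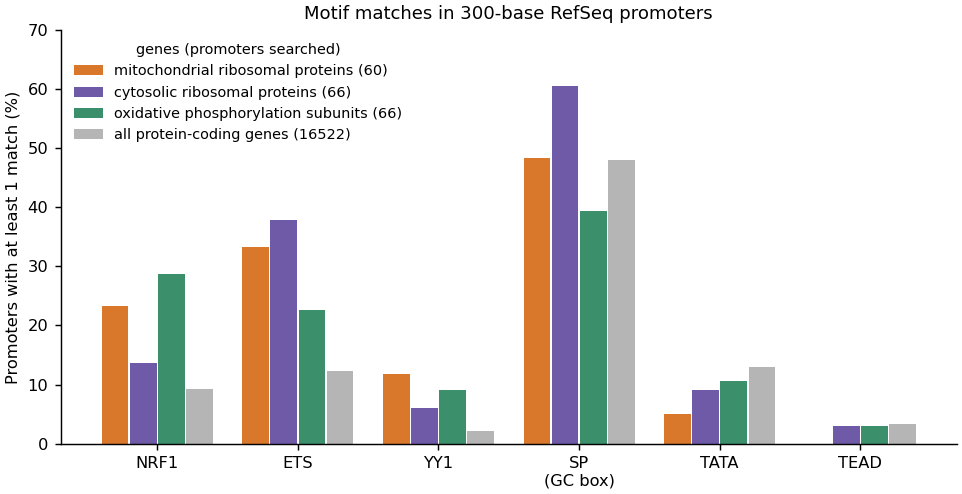
Share of 300-base RefSeq promoters with at least 1 match to each motif on either strand, in percent, for 4 groups of genes (bars, with the number of promoters searched in the legend). NRF1, ETS and YY1 bars of mitochondrial ribosomal protein genes (23.3%, 33.3% and 11.7%) stand above those of all protein-coding genes (9.19%, 12.3% and 2.05%). The SP bars of these 2 groups are alike (48.3% and 48.0%), with 60.6% for cytosolic ribosomal proteins and 39.4% for oxidative phosphorylation subunits. A TEAD match was found in 0 of the 60 members searched.

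Window totals were lowest in LacZ-shRNA replicate 2 (3326803 reads) and highest in Yap-shRNA replicate 2 (10319467), so counting error was largest in that control. Levels are given as CPM, the read count relative to the TMM-scaled library size, and as CPM per kb of window where genes are compared. The sorted nuclei carried open muscle genes: the 14 windows of muscle fibre markers had a median of 26.2 CPM per kb, at the 99.5th percentile of all windows, while the medians of the endothelial, leukocyte, fibroblast, satellite cell, pericyte and Schwann cell lists lay between the 37.4th and the 80.7th. Summed levels of the muscle list ranged from 1430 to 1940 CPM in LacZ-shRNA and from 1490 to 1720 CPM in Yap-shRNA, and those of the fibroblast list from 206 to 240 and from 230 to 290 CPM. The groups overlapped for both lists. By window, log2 fold changes of Yap-shRNA over LacZ-shRNA were below 0 at 12 of the 14 muscle markers and above 0 at 2 (median -0.11). In the leukocyte list 6 were above 0 and 2 below (median 0.25), and in the fibroblast list 4 and 3 (median 0.21). In the endothelial list 4 were above 0 and 3 below (median 0.0). That list ran from -0.59 at Kdr (edgeR adjusted p 0.909) to 0.16 at Pecam1, both named after their values were seen. Medians of the remaining lists lay between -0.04 and 0.06. In each list 0 windows had an edgeR adjusted p under 0.05, and the part of these lists in the results was not tested. Fewer nuclei of a type and less open chromatin per nucleus cannot be told apart in pooled nuclei. The Yap1 window held 12.1, 16.7 and 14.1 CPM in LacZ-shRNA and 14.7, 16.5 and 12.1 CPM in Yap-shRNA, but a hairpin acts on RNA, so this is no check of the knockdown.

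Mitochondrial ribosomal protein promoters were open in both groups. The median level of the 67 windows was 6.77 CPM per kb, compared with 4.45 over all windows, and this placed the median member at the 78.7th percentile of all windows and at the 61.3rd of protein-coding ones. The range was wide, from 0.609 to 21.8 CPM per kb. The median was 6.82 CPM per kb over the 26 Mrps windows and 6.75 over the 41 Mrpl windows. By ancestry, medians were 6.56 CPM per kb for 16 small-subunit members with bacterial relatives, 6.88 for 7 small-subunit members specific to mitochondria, 6.7 for 28 large-subunit members with bacterial relatives and 6.75 for 15 large-subunit members specific to mitochondria. Mrps18a was counted among these 15, although it encodes a paralogue of a bacterial small-subunit protein. The medians of these classes, and of the Mrps and Mrpl windows, were close, and their differences were not tested.

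**Figure D2:**
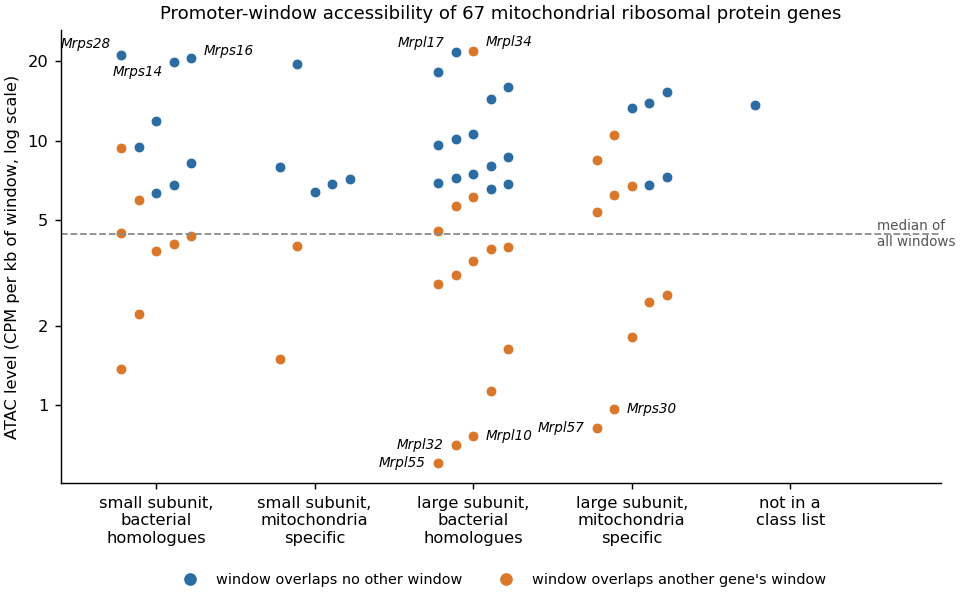
Mean accessibility over the 6 samples (CPM per kb of window, log scale) of each mitochondrial ribosomal protein gene (points), by subunit and ancestry, with the 5 highest and 5 lowest named. The last column holds Mrps36 and the dashed line is the median of all windows (4.45 CPM per kb). All points below 6.35 CPM per kb belong to overlapping windows (orange).

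The 5 highest levels belonged to proteins with bacterial relatives, a class that holds 16 small-subunit and 28 large-subunit members of the 67. Mrpl34 stood at 21.8 CPM per kb, Mrpl17 at 21.5, Mrps28 at 21.1, Mrps16 at 20.5 and Mrps14 at 19.7. Next came the mitochondria-specific Mrps23 at 19.4, named after its value was seen. Mrps16 and Mrps14 are core proteins of the small subunit that bind its RNA, as Mrpl34 and Mrpl17 do in the large subunit. The Mrps16 window held 32.6, 45.8 and 52.6 CPM in LacZ-shRNA and 45.2, 43.7 and 44.5 CPM in Yap-shRNA. The Mrps28 window held 38.0, 34.3 and 52.6 against 46.9, 39.0 and 43.0 CPM. The LacZ-shRNA samples were spread more widely than the Yap-shRNA samples at both genes, and neighbours in this order did not differ beyond that spread.

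The 5 lowest windows were those of Mrpl55 (0.609 CPM per kb), Mrpl32 (0.708), Mrpl10 (0.769), Mrpl57 (0.822) and Mrps30 (0.966). Mrpl10 forms the base of the stalk that recruits translation factors, and Mrpl32 matures only after cleavage by the m-AAA protease of the inner membrane. Mean counts in these windows were 10.2, 12.2, 12.0, 13.8 and 18.2 reads per library. The peaks over the same start sites, counted from the same libraries, held 269 reads at Mrpl55, 178 at Mrpl32, 133 at Mrpl10, 127 at Mrpl57 and 100 at Mrps30. Between 75.8% and 92.5% of each of these windows is also inside the window of a neighbouring gene.

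This contrast held across the group. A window spans 1 kb to each side of every annotated start of a gene, and 34 of the 67 windows (50.7%) overlap the window of another gene, compared with 28.7% of protein-coding windows. The 33 windows without overlap lay between 6.35 and 21.5 CPM per kb, with a median of 9.47, and 0 of them were in the bottom 10% of all windows. The 34 overlapping windows had a median of 3.86 CPM per kb, and 10 were in the bottom 10%. A start-site peak, the nearest peak within 1 kb of the principal annotated start, was present at 65 members (97.0%), compared with 48.3% of protein-coding genes with a window. It contained the principal start itself at 63 of them, whereas at Mrpl1 and Mrpl13 it began 319 and 143 bp past it. The RefSeq start of Mrpl1 lies inside its peak (chr5:96209812-96210410). At Mrpl48 the start-site peak held 14.0 CPM, and another peak, over the RefSeq start, held 69.2 CPM. Start-site peaks showed no division by overlap: their median was 24.4 CPM per kb at 31 members without overlap and 26.4 at 34 members with it. The median ratio of window count to peak count was 1.59 without overlap, 0.537 with overlap and 0.109 for the 7 members with over 75% of the window overlapped. In its default mode featureCounts leaves a read in the windows of 2 genes unassigned, and the study's methods name default settings for counts over whole genes but not for these windows. A low window level in this group went with overlap and not with a small start-site peak. Levels per kb are also divided by a window length that grows with separate annotated starts. Without overlap, Mrps9 (8056 bp) stood at 6.35 CPM per kb and Mrps35 (6850 bp) at 6.37, against 21.5 at Mrpl17 (2142 bp). Other windows went the other way, with 15.9 at Mrpl23 (5419 bp) and 7.17 at Mrps22 (2016 bp). The part of window length was not tested. Start-site peaks ranged from 18.2 CPM per kb at Mrpl22 to 52.7 at Mrpl41. No peak was analysed at the starts of Mrpl24 and Mrpl28, although their windows stood at 8.64 and 14.3 CPM per kb.

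**Figure D3:**
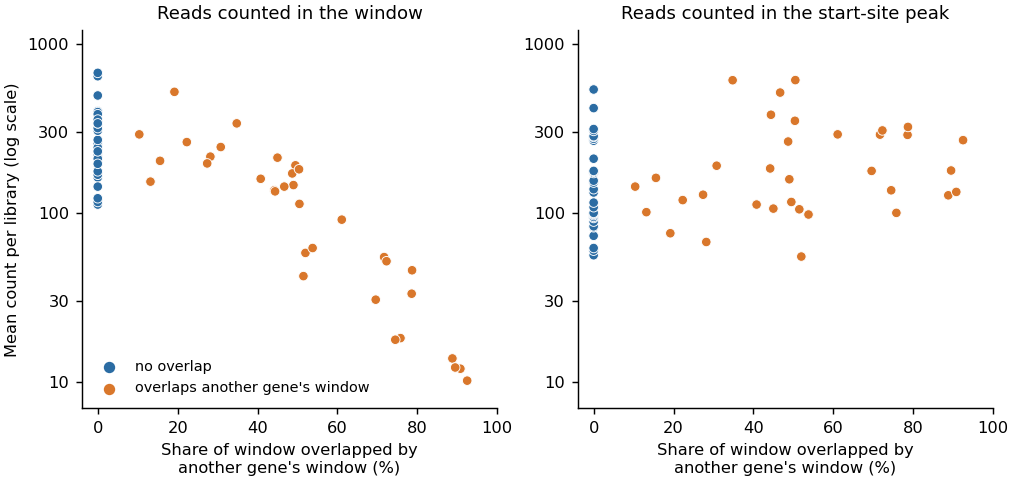
Mean count per library (log scale) in the promoter window (left) and in the start-site peak (right) of 65 mitochondrial ribosomal protein genes, against the percentage of the window that lies inside the window of another gene. Window counts fall towards 10 reads as the overlap rises to 92.5%, whereas peak counts at the same genes stay between 55.2 and 609 reads at any overlap.

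Many members start close to a gene on the opposite strand. Partner starts downstream of the member's own start were counted too, as at Mrpl9 and Mrps30. A start on the opposite strand lay within 1 kb of the start of 23 of the 67 members (34.3%), compared with 9.34% of protein-coding genes with a window, 13.8% of cytosolic ribosomal protein genes and 25.7% of genes for oxidative phosphorylation subunits. Partners included other mitochondrial genes. At their principal annotated starts, Mrpl47 and Mrpl36 overlap head to head with Ndufb5 and Ndufs6, both subunits of complex I. The RefSeq starts used in the motif search lie downstream of these, and that of Mrpl36 is under a separate peak (chr13:73330720-73331640). Overlap was not examined at the RefSeq starts. Mrps12 lay 172 bp from Sars2, the mitochondrial seryl-tRNA synthetase. Mrpl32 started 75 bp from Psma2, a proteasome subunit, and Mrpl49 started 59 bp from Fau, which encodes a cytosolic ribosomal protein. Mrps18c started 29 bp from Helq, a DNA helicase. Over all 78 annotated protein-coding genes of the family the share was 41.0%, and 9 of the 11 genes outside the analysed windows were of this kind. The windows of these 11 are overlapped by 92.2% to 100%. Mrpl46 and Mrps11, which encode one protein of each subunit, start 30 bp apart on opposite strands of chromosome 7, and a single peak (chr7:78782674-78783640, GRCm38) covers both starts with 17.5, 19.5 and 21.2 CPM in LacZ-shRNA and 20.9, 21.5 and 20.2 CPM in Yap-shRNA.

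Yap knockdown was followed by no called difference at any mitochondrial ribosomal protein window. In edgeR's quasi-likelihood test over all windows, 0 of 67 members passed an adjusted p of 0.05, and their lowest adjusted p was 0.946. Over all windows, 11 passed (0.0223%). An unadjusted p under 0.05 was reached by 1 member (1.49%), compared with 4.9% of all windows. DESeq2 and edgeR's likelihood-ratio test also called 0 members. The groups were separate, with no overlap between their samples, at 9 members (13.4%), compared with 10.1% of all windows, and these shares are close. Log2 fold changes of Yap-shRNA over LacZ-shRNA ran from -0.28 to 0.54 with SEs between 0.13 and 0.47, and the 95% interval stayed within a 1.5-fold change in either direction for 50 of the 67 windows. The 7 windows overlapped by over 75% had a median SE of 0.41, against 0.15 for windows without overlap, so the largest fold change, 0.54 at Mrpl55, was also among the least precise (95% interval -0.42 to 1.49).

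Members leaned slightly upwards, by an amount that changed with the libraries included. Estimates were above 0 at 42 windows and below 0 at 25, with a median of 0.053, compared with -0.014 over all windows. LacZ-shRNA replicate 1 was the lowest of the 6 samples at 38 of the 67 windows (56.7%), compared with 28.9% of all windows and 38.7% of protein-coding windows without overlap. Summed over the members, this library held 1550 CPM, LacZ-shRNA replicates 2 and 3 held 1900 and 1840 CPM, and the Yap-shRNA replicates held 1780, 1720 and 1830 CPM. The Yap-shRNA sums thus lay inside the range of the controls. Without LacZ-shRNA replicate 1 the estimates were above 0 at 26 windows and below 0 at 41, with a median of -0.043 against 0.004 over all windows. Without Yap-shRNA replicate 3 they were above 0 at 35 and below 0 at 32, with a median of 0.019. Without LacZ-shRNA replicate 2 or replicate 3 the median was 0.122 or 0.092. With scaling by library size alone 49 were above 0 and 18 below, with a median of 0.114 against 0.046.

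**Figure D4:**
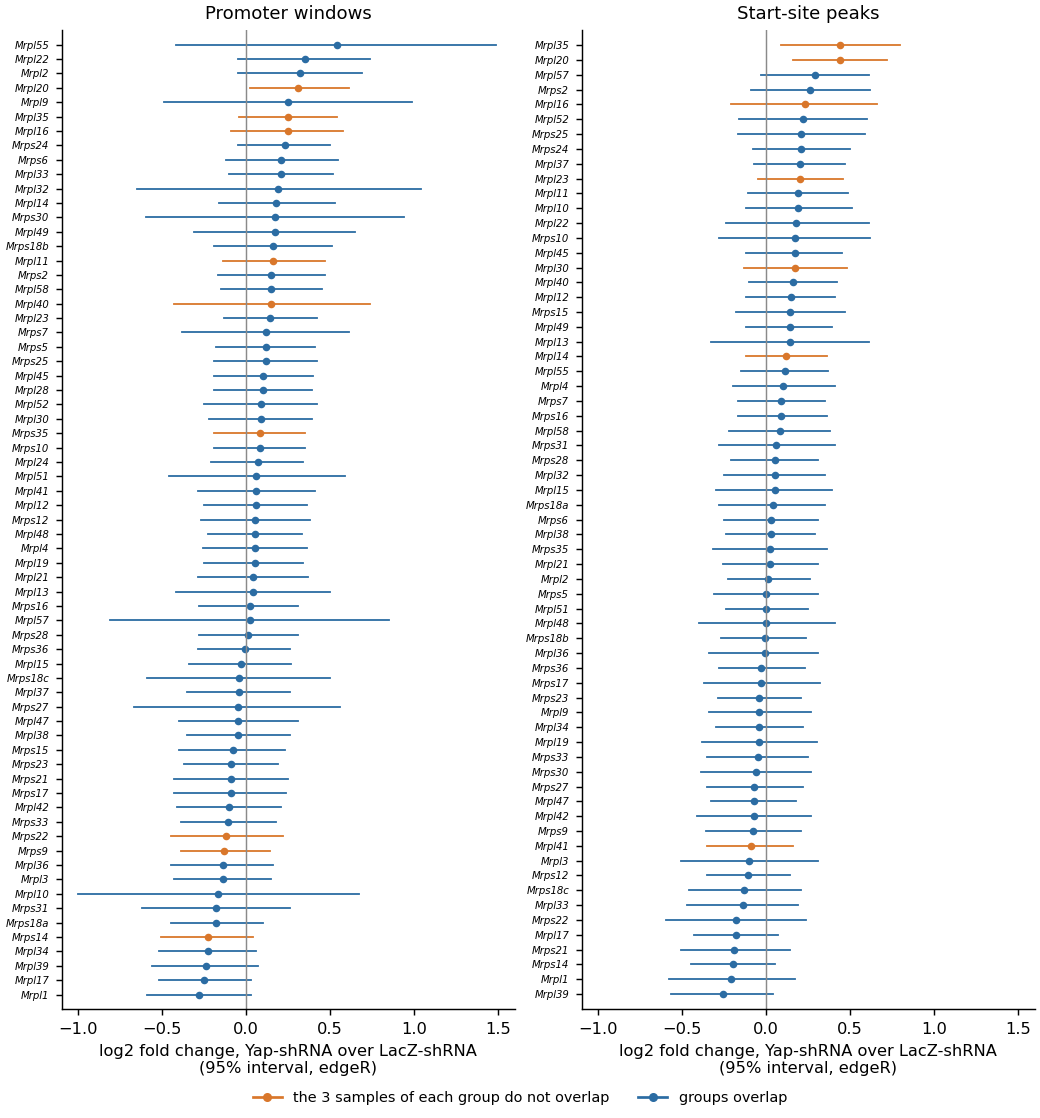
Log2 fold change of Yap-shRNA over LacZ-shRNA with its 95% interval (edgeR) for 67 promoter windows (left) and 65 start-site peaks (right) of mitochondrial ribosomal protein genes, each panel ordered by its own estimates. Orange marks genes whose 3 samples per group do not overlap. Intervals of all windows but Mrpl20 and of all peaks but Mrpl20 and Mrpl35 include 0.

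Mrpl20 had the smallest p of the group. It encodes a large-subunit protein whose bacterial relative is needed early in ribosome assembly, and its window overlaps no other. The window held 23.0, 29.5 and 29.4 CPM in LacZ-shRNA (27.3 ± 3.73, SD, n = 3) and 31.4, 32.5 and 37.7 CPM in Yap-shRNA (33.8 ± 3.36). All Yap-shRNA samples were above all controls, and LacZ-shRNA replicate 1 was the lowest. The log2 fold change was 0.31 (SE 0.15, edgeR p 0.0387, adjusted p 0.946), a difference that did not pass the threshold. Over 13 alternatives it ran from 0.20 to 0.39 with adjusted p between 0.507 and 1.0.

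The next members by p went both ways. Mrpl1, the protein of the mobile stalk beside the exit site of transfer RNA, held 23.7, 21.5 and 24.5 CPM in LacZ-shRNA and 17.3, 19 and 21.7 CPM in Yap-shRNA, a log2 fold change of -0.28 (SE 0.15). The groups overlapped by a single pair of samples. Mrpl17 held 43.1, 49.0 and 57.5 against 44.5, 42.7 and 39.6 CPM (-0.25, SE 0.14). Mrpl34 held 38.7, 45.8 and 56.5 against 45.3, 37.4 and 38.2 CPM (-0.23, SE 0.14). Without LacZ-shRNA replicate 1 their estimates were -0.36 and -0.38, with edgeR adjusted p of 0.253 and 0.227, and without LacZ-shRNA replicate 3 they were -0.11 and -0.05, with adjusted p of 0.855 and 0.938. At both genes LacZ-shRNA replicate 3 was the highest of the samples and LacZ-shRNA replicate 1 lay within the range of the Yap-shRNA samples. Mrps14 held 41.8, 43.3 and 48.3 CPM in LacZ-shRNA and 40.1, 39.0 and 34.7 CPM in Yap-shRNA (-0.23, SE 0.14), and its groups did not overlap. Mrpl39, a mitochondria-specific protein of the large subunit, held 28.9, 26.0 and 30.3 against 30.2, 23.1 and 19.1 CPM (-0.24, SE 0.16). Its estimate was -0.44 without Yap-shRNA replicate 1 and -0.11 without Yap-shRNA replicate 3. None of these differences passed the threshold, each with an edgeR adjusted p of 0.946.

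Higher estimates were seen at Mrpl22, whose bacterial relative lines the exit tunnel of the large subunit, and at Mrpl2, which lies near its catalytic centre. Mrpl22 held 7.96, 16.3 and 14.7 CPM in LacZ-shRNA and 15.2, 14.5 and 19.4 CPM in Yap-shRNA (log2 fold change 0.35, SE 0.19). LacZ-shRNA replicate 1 was far below the other controls, and without it the estimate was 0.09, compared with 0.21 without Yap-shRNA replicate 3. Mrpl2 held 10.1, 11.5 and 9.57 against 13.1, 11.5 and 13.8 CPM (0.32, SE 0.18), and 61.1% of its window is overlapped by those of Cul7 and Klc4. Mrps24, part of the messenger RNA entry site, held 37.8, 44.2 and 50.1 against 52.7, 49.6 and 53.3 CPM (0.23, SE 0.14), and its estimate was 0.11 without LacZ-shRNA replicate 1 and 0.35 without LacZ-shRNA replicate 3. Mrpl35 held 23.0, 26.0 and 23.9 against 29.9, 26.3 and 29.8 CPM (0.25, SE 0.14), with no overlap between groups although the closest samples held 26.0 and 26.3 CPM. The edgeR adjusted p was 0.946 at each of these genes.

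**Figure D5:**
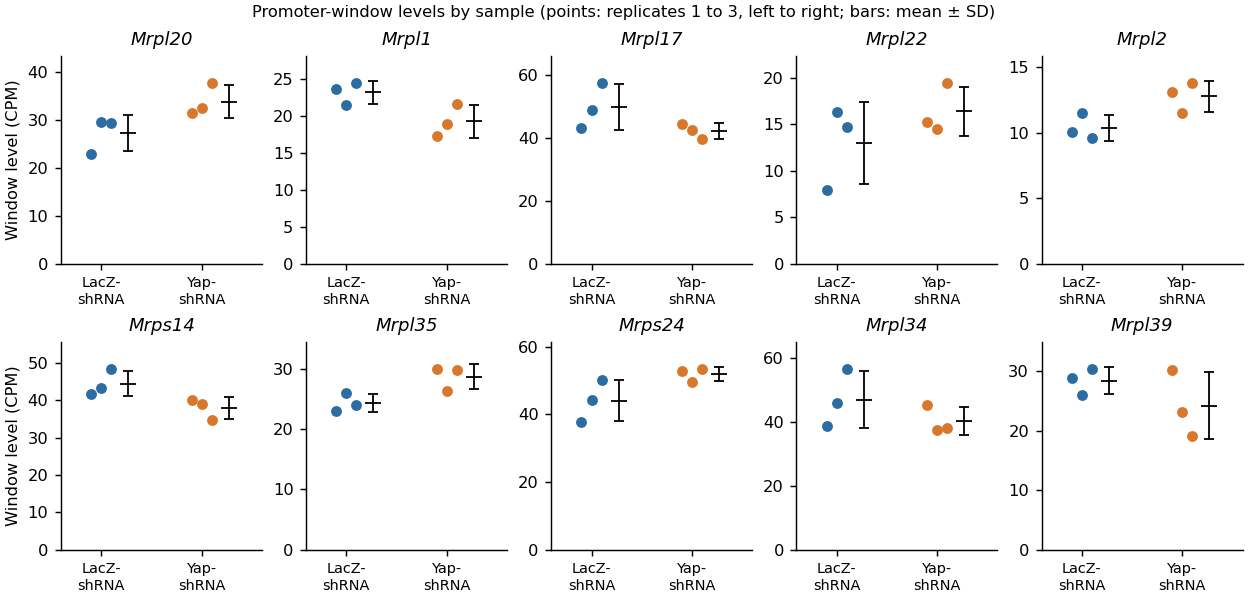
Promoter-window level (CPM) in each sample of the 10 mitochondrial ribosomal protein genes with the smallest p, in order of p, LacZ-shRNA in blue and Yap-shRNA in orange, with mean ± SD (n = 3) beside the points. Groups are separate at Mrpl20, Mrpl35 and Mrps14, and the first LacZ-shRNA sample is the lowest of its group at 7 of the 10 genes, the exceptions being Mrpl1, Mrpl2 and Mrpl39.

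The groups were also separate at 6 further members, named here after their values were seen. Mrpl11 (20.3 to 21.8 against 22.6 to 25.6 CPM), Mrpl16 (13.1 to 14.6 against 15.8 to 17.2), Mrpl40 (3.84 to 4.1 against 4.38 to 4.52) and Mrps35 (42.3 to 42.6 against 43.6 to 47.4) were higher in Yap-shRNA. Mrps22 (14.4 to 16.1 against 13.2 to 14.3 CPM) and Mrps9 (51.6 to 54.6 against 47.7 to 51.1) were lower. Separate groups in one direction were seen at 6 of the 67 members for higher and 3 for lower, compared with 2623 and 2364 of all 49366 windows. Over both directions the shares were 13.4% of members and 10.1% of all windows. Mrps35 and Mrps22 are small-subunit proteins without a bacterial relative.

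Peaks gave a second reading of the same promoters, and peaks do not overlap each other. A peak at a shared promoter counts reads around the starts of both genes, as at Mrps18b and Ppp1r10, and cannot be assigned to the member alone. The deposited set had 36097 peaks, of which 70 lay within 1 kb of a start of a member, and 0 of the 70 passed the threshold, compared with 223 of all peaks (0.618%). An unadjusted p under 0.05 was reached by 2 (2.86%), compared with 8.9% of all peaks, and groups were separate at 7 (10%), compared with 13.3%. DESeq2 and the likelihood-ratio test called 0. The median log2 fold change was 0.029, compared with -0.003 over all peaks, with 43 above 0 and 27 below, and without LacZ-shRNA replicate 1 the numbers were 35 and 35. At the start-site peaks of all protein-coding genes the median was 0.03. The 95% interval stayed within a 1.5-fold change for 59 of the 70 peaks. LacZ-shRNA replicate 1 was the lowest sample at 29.2% of the members' start-site peaks and at 36.4% of those of all protein-coding genes.

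Mrpl20 and Mrpl35 had the smallest p among the members' peaks. The Mrpl20 peak (chr4:155802769-155804101, GRCm38) held 25.2, 24.6 and 26.5 CPM in LacZ-shRNA and 31.4, 36.3 and 36.9 CPM in Yap-shRNA, so every Yap-shRNA sample was higher. Its log2 fold change was 0.44 (SE 0.14, 95% interval 0.16 to 0.72, edgeR p 0.00267, adjusted p 0.177). With scaling by library size alone it passed with 0.58 and an adjusted p of 0.0493, a setting that also moved the median of all peaks from -0.003 to 0.136, and 62 of the 70 members' peaks were then above 0. Over the alternatives its adjusted p ran from 0.0493 to 0.67.

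The Mrpl35 peak (chr6:71823303-71824044) held 13.4, 15.7 and 13.4 CPM in LacZ-shRNA and 20.3, 17.2 and 19.5 CPM in Yap-shRNA. The samples did not overlap, and the log2 fold change was 0.44 with an SE of 0.17. With an edgeR p of 0.0144 and an adjusted p of 0.368 it did not pass the threshold. Mrpl57, the third by p, encodes a small mitochondria-specific protein of the large subunit, and its promoter, printed above, holds an NRF1 and an ETS match. Its peak (chr14:57825841-57826931) held 18.3, 15.3 and 24.0 CPM in LacZ-shRNA and 23.9, 24.5 and 25.1 CPM in Yap-shRNA, an estimate of 0.29 on the log2 scale (SE 0.16, edgeR adjusted p 0.638). LacZ-shRNA replicate 3 lay within the Yap-shRNA range. Its window, with 13.8 reads on average, gave 0.02 with an SE of 0.41, larger than the difference in the peak.

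Among the 11 genes outside the analysed windows, 10 promoter peaks were measured and 0 passed the threshold. The peak of Mrpl44, which resembles an RNase III and helps assemble the large subunit, held 17, 17.4 and 20.2 CPM in LacZ-shRNA and 25.6, 24.5 and 22.8 CPM in Yap-shRNA. Every Yap-shRNA sample was higher, by 0.40 on the log2 scale (SE 0.16, edgeR p 0.0149, adjusted p 0.375). The peak also covers the start of Wdfy1, 125 bp away on the opposite strand, and cannot be assigned to Mrpl44 alone. The start-site peak of Mrpl53 gave 0.32 (SE 0.15, adjusted p 0.523) with overlapping groups. These 2 genes are named after their values were seen. An unadjusted edgeR p under 0.05 was reached by both peaks, and by 8.9% of all peaks.

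Mrps18a, Mrps18b and Mrps18c encode paralogues of a single bacterial small-subunit protein, 1 of which moved to the large subunit. Their windows stood at 13.8, 4.48 and 1.37 CPM per kb, and their start-site peaks at 21.4, 43.5 and 20.4 CPM per kb. The window order and the peak order differ, and the windows are overlapped by 0.0%, 46.7% and 51.5%, respectively. The Mrps18a window also spans other annotated starts of the gene. A second promoter peak, beginning 11587 bp past its principal start, held 402 reads on average, against 115 in the start-site peak. What set the window order was not tested. Mrps18b shares its promoter with Ppp1r10, 45 bp away, and its peak held 95, 78.6 and 102.0 CPM in LacZ-shRNA and 95.6, 95.2 and 84.7 CPM in Yap-shRNA. Log2 fold changes of the 3 start-site peaks were 0.04, -0.01 and -0.13 (SE 0.16, 0.13 and 0.17). None passed the threshold, and at all 3 the groups overlapped.

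Subunit classes were then set beside other genes of mitochondrial gene expression. Median log2 fold changes of windows were 0.04 and -0.09 for small-subunit members with and without bacterial relatives, and 0.08 and 0.06 for large-subunit members, with 0 of 16, 0 of 7, 0 of 28 and 0 of 15 past the threshold. Mrps18a, a paralogue of a bacterial small-subunit protein, was again counted in the last class. Large-subunit names had 29 estimates above 0 and 12 below, and small-subunit names 13 and 13. The difference between these divisions was not tested. Mitoribosomal proteins with other names (4 windows), translation factors (13), assembly and ribosomal RNA modification factors (22), mitochondrial aminoacyl-tRNA synthetases (16) and mitochondrial DNA transcription and replication factors (10) had median log2 fold changes from 0.01 to 0.07. In all 5 lists 0 windows passed the threshold, and 0 had an unadjusted p under 0.05 in either direction.

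Among them, Mtrf1l, a release factor that ends mitochondrial translation, held 59.9, 68.2 and 81.3 CPM in LacZ-shRNA and 60.4, 61.3 and 53.4 CPM in Yap-shRNA (log2 fold change -0.27, SE 0.14). Ngrn, which acts on the large ribosomal RNA, held 17.5, 19.5 and 18.9 against 23.2, 20.9 and 24.7 CPM (0.30, SE 0.15), and these groups did not overlap. Top1mt, the mitochondrial topoisomerase, held 55.9, 68.6 and 60.3 against 49.3, 55.1 and 51.3 CPM (-0.24, SE 0.13), also without overlap. The edgeR adjusted p was 0.946 for each. Estimates for Ptcd3, Dap3, Tsfm, Mrm3, Wars2, Aars2 and Tefm lay between -0.19 and 0.30, and the groups overlapped at all 7.

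Cytosolic ribosomal proteins and oxidative phosphorylation subunits were used as the nearest groups for comparison. Of 87 cytosolic ribosomal protein windows 0 passed the threshold and the median log2 fold change was 0.01, and of 78 windows of oxidative phosphorylation subunits 0 passed and the median was 0.0. In windows without overlap, median levels were 9.47 CPM per kb in 33 mitochondrial ribosomal protein genes, 10.8 in 42 cytosolic ribosomal protein genes and 11.5 in 45 subunit genes, compared with 6.48 in all 14638 protein-coding windows of that kind. All 3 groups thus stood above the typical protein-coding promoter in these nuclei, and their levels relative to each other were not tested.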

How the data were processed

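Per the labels and the study's methods, the authors mapped paired-end reads to GRCm38 with BWA 0.7.17, discarded duplicate reads (SAMtools 1.8), found peaks with MACS 1.4.2-1, kept those seen in at least 2 samples and counted reads with featureCounts 1.5.0 against Ensembl 96. The deposited values are whole-number counts per window and per peak, not normalised, without rows whose mean was under 10 reads. For reads over whole genes the methods give a mapping quality of at least 10 and default counting settings. Whether these apply to the window and peak tables, and how the transposase offset was treated, is not given in the sources used here.

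All 49366 window identifiers matched GENCODE M21, and window extents were rebuilt from it as 1 kb to each side of each annotated start. A model of group alone was fitted to each whole table after TMM scaling, and tested by quasi-likelihood in edgeR 4.0.16 (R 4.3.3). Adjusted p-values follow Benjamini-Hochberg over the table, with a threshold of 0.05. CPM values are TMM-scaled. A start-site peak is the nearest peak within 1 kb of the principal annotated start in GENCODE, and promoter peaks lie within 1 kb of any start. Motifs were searched around RefSeq starts, which differ from the principal start at some members. Other settings tried were DESeq2 1.42.0, edgeR's likelihood-ratio test, RLE factors, library size alone, a mean count of at least 50, a replicate block, leaving out each sample, leaving out overlapping windows and a link of 500 bp. The tests were checked on simulated counts. The symbol rule for members used no measured value, but earlier results of these data were known when members and lists were chosen.

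Genes named are the 10 members with the smallest p, the 5 highest and 5 lowest per kb, the 3 with the smallest p among promoter peaks, the Mrps18 paralogues and the 2 with the smallest p in each other list. Others are named as partners of a promoter or as stated.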

Additional observations from a re-analysis of the deposited data

How the results depend on the processing

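By edgeR, 0 mitochondrial ribosomal protein windows were called with the quasi-likelihood test, and 0 under each of 13 alternatives, DESeq2 included, which gave 29 of them no adjusted p, and the lowest adjusted p among them was 0.227, without LacZ-shRNA replicate 1. Over all windows 11 calls turned into 33 (likelihood-ratio test), 20 (DESeq2), 7 without overlapping windows and 4 to 157 when 1 sample was left out, the highest without LacZ-shRNA replicate 1 and the lowest without Yap-shRNA replicate 2. Over all peaks 223 calls turned into 378 (likelihood-ratio test), 118 (DESeq2), 136 with a mean count of at least 50 and 94 to 447 when 1 sample was left out. The 94 arose without either of Yap-shRNA replicates 1 and 2, and the 447 without LacZ-shRNA replicate 3. Scaling by library size called 1 member peak, that of Mrpl20, and divided all called peaks into 124 higher and 105 lower, against 17 and 206 with TMM.

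The members' median of 0.053 ran from -0.043 to 0.122 when 1 sample was left out, the lowest without LacZ-shRNA replicate 1 and the highest without LacZ-shRNA replicate 2. Of 30 genes named by rule, 7 changed sign under some alternative: with 1 sample left out, log2 fold changes ran from -0.07 to 0.35 at Mrpl32, -0.47 to 0.06 at Mrpl10, -0.24 to 0.29 at Mrpl57, -0.03 to 0.57 at Mrps30, -0.09 to 0.24 at Mrps28, -0.17 to 0.21 at Mrps16 and -0.15 to 0.14 at Mrps18c, which was 0.02 with library size alone. The cause was not tested. Same-numbered samples did not deviate together (correlations 0.174, -0.169 and 0.0864 in windows), and a replicate block gave 13 called windows, 207 called peaks, 0 called members and a median of 0.072. Members under 50 reads all have overlapped windows, and their SEs were too large to show changes of the size seen in peaks.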

Other observations

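Pseudogenes of the family gave a low reference level. The 5 pseudogene windows, of Mrps36-ps1, Mrps36-ps2, Mrps36-ps3, Mrpl23-ps1 and Mrpl48-ps, overlap no other window and stood at 3.08 to 3.87 CPM per kb, between the 23.6th and 38.5th percentile of all windows. The lowest member without overlap stood at 6.35 CPM per kb, above all 5. Mrps36 itself held 33.8, 33.6 and 36.7 CPM in LacZ-shRNA and 35.1, 33.7 and 34.9 CPM in Yap-shRNA, or 13.6 CPM per kb. Mrps36-ps1 held 8.86, 5.13 and 5.24 against 7.13, 5.03 and 5.56 CPM. Reads that map to a pseudogene and to its parent cannot be told apart in count tables. Mrps36 and the pseudogenes are named after their values were seen, and 0 of the 5 pseudogene windows passed the threshold (edgeR adjusted p 0.949 to 0.991).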
